A study of Mus musculus with 16 samples.

Results

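Embryoid bodies lacking Taf4a were compared with wild-type (WT) embryoid bodies at EB4, the floating aggregates collected just before retinoic acid was added. The 4 EB4 libraries, chosen by the genotype and stage on their labels, are 4 of the 16 libraries of the series, and 16124 of its 27807 genes were tested. The WT EB4 group was 2 libraries of genotype Taf4+/+ and the mutant (KO) EB4 group 2 libraries of genotype Taf4-/-, both of differentiating ES cells that had been cultured on inactivated fibroblast feeders with LIF and then aggregated in a protocol that makes glutamatergic neurons. Libraries of both genotypes were also made from undifferentiated ES cells and, after retinoic acid, at EB5 and EB8. The lines came from blastocysts of crosses of heterozygous C57Bl6J mice, the null allele lacks exons 11 and 12 of Taf4a, and the study used 2 independent lines per genotype for the embryoid bodies. The labels do not say which line each library came from, so p-values measure the spread between these libraries.

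Taf4a encodes Taf4, a subunit of TFIID. TFIID is the general transcription factor that places the TATA-binding protein Tbp on promoters and starts assembly of the preinitiation complex, and Taf4b is the paralogue of Taf4. When ES cells are aggregated without LIF, the transcription factors of the naive pluripotent state, such as Esrrb, Klf4 and Tfcp2l1, are normally shut down, genes of the later epiblast such as Fgf5 and Dnmt3b are switched on, and an outer layer resembling visceral endoderm can form.

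At EB4 the KO aggregates held more RNA of naive pluripotency genes than WT aggregates (12 of 19 tested rose), and more of Tet2 and Dnmt3l. They held less of some members of TGF-beta (5 of 25 fell and 1 rose) and Notch signalling (3 of 20 fell and 1 rose). Basement membrane genes fell in 4 of 15 cases. Past the threshold (limma on log2 normalised counts, adjusted p under 0.05) were 986 of the 16124 tested genes, 6.12%. Of these, 443 were higher in KO (2.75%) and 543 were lower (3.37%). The median size of the change was 1.48 on the log2 scale, and 323 of the higher and 441 of the lower genes changed by at least 1 on that scale. By annotation 943 of the 986 were protein coding, 16 were long intergenic non-coding RNAs and 7 were pseudogenes.

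These counts depended on individual libraries. Without KO EB4 replicate 2 no gene passed with limma (2013 had an unadjusted p under 0.05), and when only the 4 EB4 libraries were fitted no gene passed with limma (2984 unadjusted) or edgeR (3160 unadjusted), while DESeq2 called 1569. Without WT EB4 replicate 1 the count was 335 and without WT EB4 replicate 2 it was 322. In all 986 genes the groups did not overlap, an arrangement that 25.3% of all tested genes showed with KO above WT and 26.6% with KO below.

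The KO libraries did not depart equally from WT. KO replicate 2 lay above KO replicate 1 in 368 of the 443 higher genes and below it in 414 of the 543 lower genes. Against the WT mean, the higher genes had a median log2 difference of 1.39 in KO replicate 1 and 1.74 in KO replicate 2, and the lower genes of -1.26 and -1.61. KO replicate 2 also stood apart in the level of the X chromosome, where the median log2 level of 613 genes was 0.55 against -0.21 to -0.15 in the other EB4 libraries. Chromosome 8 was high in WT replicate 1 (0.41 against -0.13 to -0.06) and chromosome 11 in KO replicate 1 (0.18 against -0.13 to -0.07), whereas the other 17 chromosomes ranged from -0.08 to 0.13. Away from chromosomes 8, 11, X and Y, 358 genes were higher and 484 lower, 2.69% and 3.64% of 13314. On chromosome 8, 8 genes were higher and 42 lower (0.938% and 4.92% of 853). Chromosome 11 held 62 higher and 13 lower genes (4.63% and 0.972% of 1338), and X 15 and 4 (2.45% and 0.653% of 613). The same 3 levels were seen at EB5 and EB8 in libraries of the same number (0.39 and 0.38 for chromosome 8, 0.18 and 0.27 for chromosome 11, 0.40 at both stages for X). The ES libraries matched this in KO (0.23 for chromosome 11 in replicate 1 and 0.36 for X in replicate 2) but not in WT, where chromosome 8 stood at -0.15 and -0.16 and X was high in replicate 2 (0.47). Whether the WT ES libraries came from the lines used for the embryoid bodies is therefore not known, and comparisons of EB4 with ES carry that limit. The test at EB4 carries it too, since its spread is shared with the ES libraries. With only the 12 embryoid body libraries limma called 1019 genes at EB4. These held 365 of the 443 higher and 472 of the 543 lower genes. The part of these chromosome levels in the gene changes was not tested.

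Of the 4 chromosome Y genes tested, 3 did not overlap between the genotypes at EB4, with KO below WT, against 26.6% of all tested genes. Eif2s3y stood at 1322.8 and 1277.1 counts in WT against 26.9 and 2.6 in KO, and Ddx3y 288.2 and 211.2 in WT against 2.3 and 2.6 in KO, neither past the threshold (limma adjusted p = 0.0869 and 0.138). Uty stood likewise apart, whereas Kdm5d overlapped, at 0 and 64.3 in WT against 2.3 and 0 in KO. WT ES replicate 2 had 4.0 counts of Eif2s3y and 0 of Ddx3y, against 2248.1 and 1236.9 in WT ES replicate 1. The limma fit shares a spread over the groups, so this difference enters the standard errors at EB4 (2.28 and 2.35). With DESeq2 on recovered reads Eif2s3y, Ddx3y and Uty passed (adjusted p = 0.0115, 0.0265 and 0.00106) and Kdm5d did not (0.168). With edgeR none of the 4 passed (adjusted p = 0.0726 to 0.307). At EB4 the genotype and expression of Eif2s3y, Ddx3y and Uty cannot be told apart. Xist, the RNA of the inactive X, had 929.0 counts in KO replicate 2 and 132.0 in KO replicate 1, against 39.5 and 52.5 in WT.

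**Figure D1:**
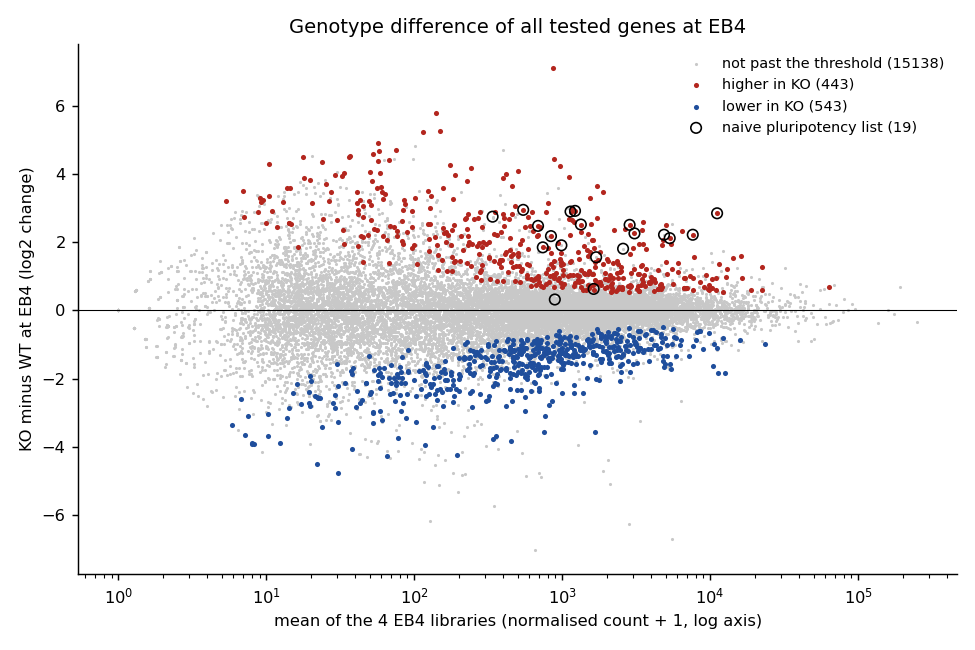
Each point is 1 of the 16124 tested genes, placed by its mean in the 4 EB4 libraries (normalised count + 1, log axis) and by its log2 difference, KO minus WT. Red and blue points are the 443 higher and 543 lower genes past the threshold, and the circled genes of the naive pluripotency list all lie above 0.

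**Figure D2:**
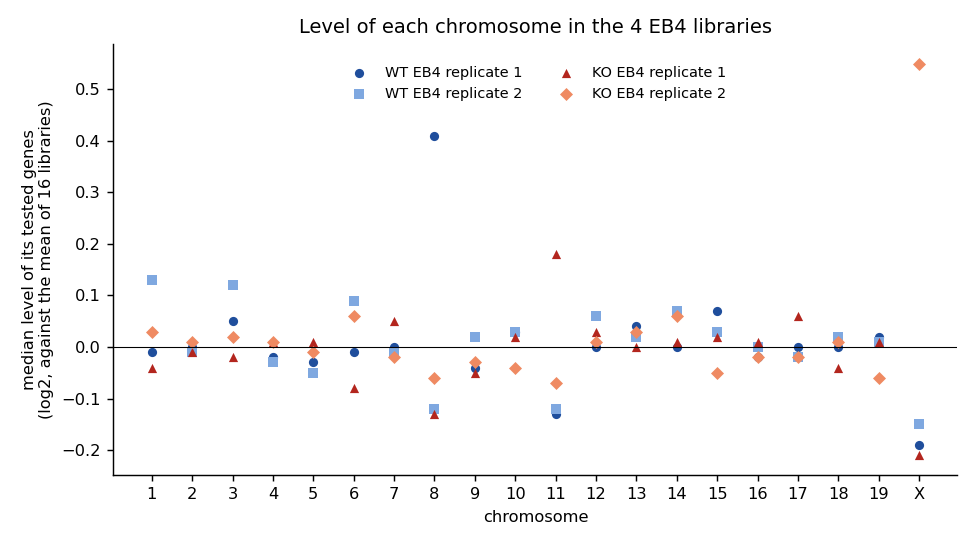
For each chromosome the 4 symbols give the median log2 level of its tested genes in the 4 EB4 libraries, relative to the mean of the 16 libraries. WT replicate 1 stands out on chromosome 8 at 0.41, KO replicate 1 on chromosome 11 at 0.18 and KO replicate 2 on X at 0.55.

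Taf4a itself (chr2:179646851-179711351 on mm9, minus strand) was still counted in the KO. It stood at 1959.6 and 1938.7 normalised counts in WT against 2369.2 and 2055.9 in KO, a log2 difference of 0.18 ± 0.15 (SE, limma adjusted p = 0.524). Exons 11 and 12 take up 131 and 126 of the 4422 bases of the longest annotated transcript, so a count over the gene does not check the deletion. Taf4b stood at 882.3 and 825.7 counts in WT against 1172.9 and 1265.9 in KO (0.51 ± 0.22, adjusted p = 0.188). Both groups of Taf4b values lay apart, without passing the test.

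Of the 17 TFIID subunits tested, 2 rose and none fell, beside 2.75% and 3.37% of all tested genes. Taf12, a histone-fold subunit that pairs with Taf4 inside TFIID, stood at 522.8 and 409.6 counts in WT against 886.7 and 912.4 in KO, a rise of 0.96 ± 0.20 (adjusted p = 0.0193). Taf13, the histone-fold partner of Taf11, stood at 419.8 and 415.0 in WT against 713.8 and 890.7 in KO (0.93 ± 0.25, adjusted p = 0.0468). For both genes the groups were well apart and the KO values lay within the range of the WT ES values, which were 973.9 and 814.8 for Taf12 and 1045.8 and 632.2 for Taf13. Tbp had a log2 difference of 0.22 and Taf11 of 0.02, neither past the threshold, and the median of the 17 subunits was 0.22 (0.38 without WT replicate 1), against -0.004 for all tested genes.

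The labelled stage was checked with defining markers per kilobase of exon. Pou5f1, the core pluripotency factor Oct4, had 4254 to 8664 normalised counts per kilobase in the 4 libraries and Sox2 3552 to 5832. The epiblast genes Fgf5 (635.3 to 1988) and Dnmt3b (4010 to 13340) were also present in each library. Pou3f1, also listed as an epiblast gene, was scarce at 0.8496 to 6.932. Neural Pax6 stayed at 6.185 to 11.83 and yolk sac Afp at 0 to 0.6118 counts per kilobase, whereas Nes, also listed as neural, stood at 398.4 to 1410. The aggregates of both genotypes thus carried pluripotent markers and the epiblast markers Fgf5 and Dnmt3b together, while Afp and Hbb-y were at or under 3 reads. Mesp1, a mesoderm factor, was at 0 in WT replicate 1 and KO replicate 2, and at 23.6 counts in WT replicate 2 and 36.2 in KO replicate 1. Other mesoderm markers were present in each library, Eomes at 178.4 to 519.3 counts per kilobase, T at 43.14 to 349.2 and Mixl1 at 11.47 to 143.1. Of the endoderm markers, Foxa2 stood at 11.85 to 68.02 counts per kilobase, Gata4 at 14.34 to 44.15, Gata6 at 7.892 to 23.77 and Sox17 at 1.214 to 12.24.

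The naive pluripotency list had the highest median of the gene lists. Of 19 tested, 12 rose and none fell, beside 2.75% of all tested genes that rose. In 17 both KO values lay above both WT values, against 25.3% of all tested genes. The median log2 difference of the 19 was 2.22 at EB4. It was 1.95 when KO replicate 1 alone was set against the WT mean and 2.49 for KO replicate 2, and in each KO library all 19 were above the WT mean. With edgeR on recovered reads Klf4 and Pecam1 did not pass (adjusted p = 0.0776 and 0.0564), and the other 10 did.

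Among the transcription factors, Esrrb, an orphan nuclear receptor that activates naive genes, stood at 3449.0 and 2053.4 counts in WT EB4 against 10905.6 and 14100.1 in KO EB4. It rose by 2.22 ± 0.33 (adjusted p = 0.0073), a 4.54-fold difference, and KO values stayed within the range of the WT ES libraries (7375.1 and 13417.5) or just above it. Tfcp2l1 (chr1:120524522-120581744, plus strand), a Grainyhead-family activator of the LIF pathway, stood at 1553.0 and 2398.7 in WT against 6509.5 and 10853.6 in KO (2.12 ± 0.31, adjusted p = 0.00727). Nr5a2, a nuclear receptor that can activate Oct4, stood at 318.9 and 309.9 in WT against 905.4 and 1419.1 in KO (1.85 ± 0.25, adjusted p = 0.00503). For these genes the lowest KO value was well above the highest WT value.

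Klf4, a Krüppel-like reprogramming factor, stood at 141.4 and 589.8 in WT against 1231.3 and 1392.3 in KO (2.18 ± 0.57, adjusted p = 0.0447). Here the WT libraries differed from each other by more than the KO libraries did. Nr0b1, the nuclear receptor Dax1 on the X chromosome, stood at 450.4 and 172.6 in WT against 1987.2 and 2269.0 in KO (2.92 ± 0.44, adjusted p = 0.0081). The X level was high in KO replicate 2, and its part in this rise was not tested. Prdm14, which represses FGF signalling and methylation genes, stood at 134.8 and 100.8 in WT against 623.8 and 1317.0 in KO (2.95 ± 0.67, adjusted p = 0.0279). KO replicate 2 had the higher of both KO values.

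Markers of the naive state without a role in transcription moved with these factors. Dppa3, the oocyte and germline protein Stella, stood at 184.1 and 382.8 in WT against 1951.0 and 2032.9 in KO, a rise of 2.90. Dppa5a rose by 2.85, from 3717.5 and 1763.9 in WT to 13035.3 and 26039.7 in KO. Manba, a lysosomal mannosidase, rose by 2.26, and the adhesion proteins Pecam1 and Jam2 by 2.52 and 2.48. Pecam1, on chromosome 11, stood at 474.6 and 316.3 in WT against 1795.6 and 2756.5 in KO.

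The 7 naive genes that did not pass were Zfp42, Klf2, Klf5, Tbx3, Tcl1, Fgf4 and Fbxo15. Tbx3 stood at 266.3 and 583.3 in WT against 1122.7 and 1974.2 in KO (log2 difference 1.91, adjusted p = 0.0573), and Fgf4, the ligand that drives exit from the naive state, stood at 2406.8 and 1178.5 in WT against 6663.7 and 9259.7 in KO (2.22, adjusted p = 0.134). For Zfp42, known as Rex1, the groups overlapped, at 2713.6 and 398.9 in WT against 1147.2 and 2261.3 in KO. Zfp42 lies on chromosome 8, which was high in WT replicate 1.

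**Figure D3:**
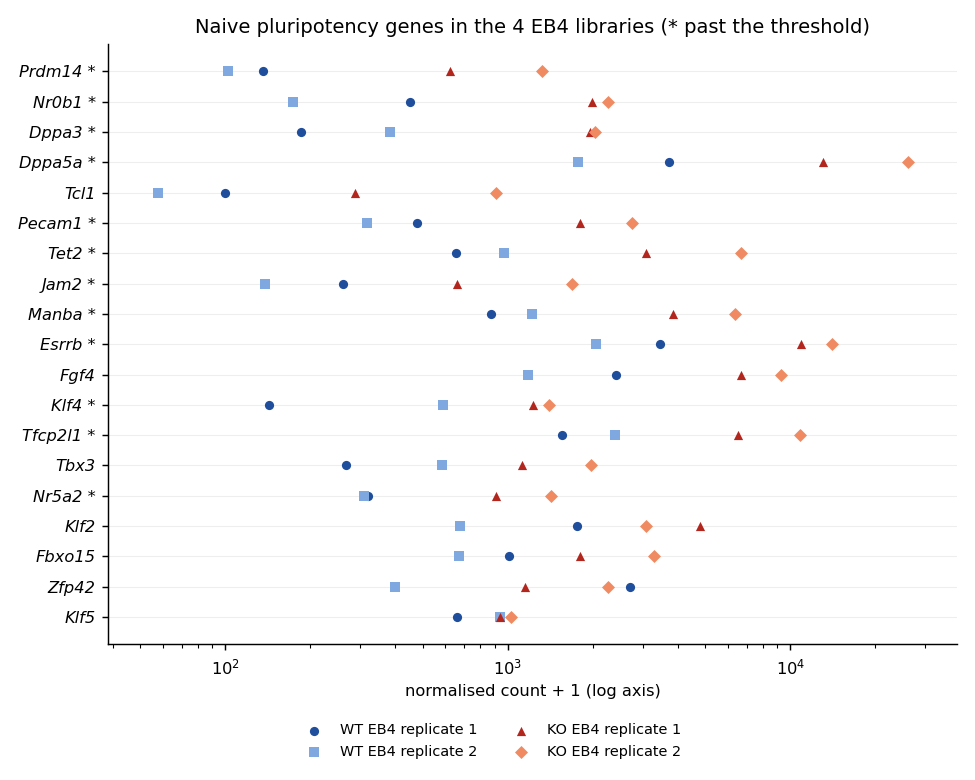
Normalised counts + 1 (log axis) of the 19 naive pluripotency genes in the 4 EB4 libraries, ordered by log2 difference, with a star on the 12 past the threshold. KO symbols lie to the right of both WT symbols in 17 genes, and in Zfp42 and Klf5 they overlap.

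In ES cells the same list had a median KO minus WT log2 difference of 0.76, in separate libraries. Tfcp2l1 had 5860.6 and 6661.3 counts in WT ES and 14788.3 and 14794.6 in KO ES, a difference of 1.24 that did not pass (adjusted p = 0.144). A test of the EB4 difference against the ES difference called no gene with limma or edgeR (1129 of 16124 had an unadjusted limma p under 0.05, 7.0%), and 112 with DESeq2. At EB5, after the first day of retinoic acid, the naive median was 2.37. The EB4 difference against the EB5 difference gave no call with limma or edgeR (478 unadjusted with limma, 2.96%) and 4 with DESeq2. The 443 higher genes had medians of 0.36 in ES, 1.27 at EB5 and 1.26 at EB8, and the 543 lower genes of -0.75, -0.95 and -0.93.

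TFIID acts at core promoters, so RefSeq promoter sequences are shown for examples of genes that moved, picked by hand and not by a rule. Tfcp2l1 and Nr0b1 rose among naive genes, Tet2 among DNA methylation genes and Taf13 among TFIID subunits, and Tgfb2 and Sema3c fell. Each run covers 250 bases before and 50 bases from the RefSeq start (300 bases, GRCm38.p6, a later build than that of the counts) and reads 5′ to 3′ along the gene. Capitals mark 4 motifs searched on both strands, none of which contains another, namely the TATA box core TATAAA, the CCAAT box, the GC box GGGCGG and, for Oct4-like factors, the octamer ATGCAAAT.
Tfcp2l1, chr1:118627695-118627994, plus strand: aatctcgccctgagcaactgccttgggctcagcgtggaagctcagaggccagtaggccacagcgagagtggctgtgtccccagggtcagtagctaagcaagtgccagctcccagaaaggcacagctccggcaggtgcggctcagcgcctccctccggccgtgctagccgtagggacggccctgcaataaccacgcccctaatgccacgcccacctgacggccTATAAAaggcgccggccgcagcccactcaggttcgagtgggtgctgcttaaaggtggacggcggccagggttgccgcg
Nr0b1, chrX:86191525-86191824, plus strand: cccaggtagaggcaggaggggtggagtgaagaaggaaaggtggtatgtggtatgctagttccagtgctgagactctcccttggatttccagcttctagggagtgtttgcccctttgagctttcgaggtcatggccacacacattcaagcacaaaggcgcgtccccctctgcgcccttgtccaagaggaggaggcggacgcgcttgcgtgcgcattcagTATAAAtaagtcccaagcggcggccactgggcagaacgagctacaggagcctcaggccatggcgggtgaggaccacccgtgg
Tet2, chr3:133544341-133544640, minus strand: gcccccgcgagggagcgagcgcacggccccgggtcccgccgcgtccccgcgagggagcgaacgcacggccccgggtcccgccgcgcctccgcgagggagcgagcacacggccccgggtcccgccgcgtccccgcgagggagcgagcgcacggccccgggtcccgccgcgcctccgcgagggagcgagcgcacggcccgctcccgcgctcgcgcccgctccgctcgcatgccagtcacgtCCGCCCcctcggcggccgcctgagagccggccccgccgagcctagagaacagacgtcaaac
Taf13, chr3:108571449-108571748, plus strand: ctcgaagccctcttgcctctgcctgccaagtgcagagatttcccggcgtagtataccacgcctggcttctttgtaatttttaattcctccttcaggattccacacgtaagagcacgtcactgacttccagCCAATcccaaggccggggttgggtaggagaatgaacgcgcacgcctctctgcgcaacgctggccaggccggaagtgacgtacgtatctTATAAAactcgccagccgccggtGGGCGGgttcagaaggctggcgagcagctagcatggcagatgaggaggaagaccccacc
Tgfb2, chr1:186705940-186706239, minus strand: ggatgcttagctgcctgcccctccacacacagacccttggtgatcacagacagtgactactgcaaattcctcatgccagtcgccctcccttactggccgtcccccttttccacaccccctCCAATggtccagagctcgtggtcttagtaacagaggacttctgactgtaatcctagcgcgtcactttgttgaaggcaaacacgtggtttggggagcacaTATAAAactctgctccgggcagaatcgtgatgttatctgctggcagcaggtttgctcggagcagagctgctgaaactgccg
Sema3c, chr5:17574566-17574865, plus strand: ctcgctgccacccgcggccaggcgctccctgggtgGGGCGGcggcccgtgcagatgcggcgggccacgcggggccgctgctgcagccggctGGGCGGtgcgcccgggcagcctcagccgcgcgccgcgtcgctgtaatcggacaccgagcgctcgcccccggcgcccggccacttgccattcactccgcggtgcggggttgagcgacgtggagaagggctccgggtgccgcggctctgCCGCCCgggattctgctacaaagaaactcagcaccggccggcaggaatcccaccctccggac

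TATAAA began 28 bases before the start in Tfcp2l1, 32 in Nr0b1 and Taf13 and 31 in Tgfb2. It was thus found in promoters of genes that rose and of a gene that fell. As these promoters were picked by hand, their share with TATAAA says nothing about the called genes. Tet2 (GC content 81.3%) and Sema3c (75.7%) held no TATAAA in the window and had GGGCGG on the opposite strand 11 and 12 bases before the start. Of 32851 promoters in the table, 13.6% held TATAAA, 37.4% CCAAT, 35.7% GGGCGG and 1.74% ATGCAAAT on either strand. TATAAA on the gene's strand between 45 and 15 bases before the start was in 2.14%. A promoter was matched for 74.6% of the tested genes and 75.7% of the called genes. Motif shares were not compared between the higher and lower genes.

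Of 12 core pluripotency genes 2 rose and none fell, beside 2.75% and 3.37% of all tested genes. Dppa2, a chromatin protein of pluripotent cells, stood at 607.2 and 167.3 in WT against 1336.5 and 2723.3 in KO (2.58 ± 0.59, adjusted p = 0.0279). Nanog stood at 6388.4 and 3464.6 in WT against 12278.3 and 18551.3 in KO without passing (1.68, adjusted p = 0.0896). Pou5f1 overlapped between the groups, at 19284.7 and 9597.1 in WT against 17374.2 and 19545.4 in KO (0.44, adjusted p = 0.533). Sox2 had a difference of 0.51 (adjusted p = 0.223).

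Formative and primed epiblast genes did not move in 1 direction. Of 17 tested, 2 rose, Etv5 and Dnmt3a, and none fell, beside 2.75% and 3.37% of all tested genes. The median of -0.38 was -0.08 without KO replicate 2 and -1.20 without KO replicate 1. Etv5, an ETS factor downstream of FGF, stood at 8378.7 and 4712.7 in WT against 13639.3 and 18899.7 in KO (1.35 ± 0.28, adjusted p = 0.0186). Fgf5 stood at 3707.7 and 4971.2 in WT against 2751.2 and 1588.8 in KO (-1.04, adjusted p = 0.216), and Otx2 7163.3 and 6070.3 in WT against 7698.8 and 7267.6 in KO (0.18, adjusted p = 0.873). Epiblast genes were thus expressed in the same KO libraries as the naive genes.

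Of 14 genes of DNA methylation 3 rose and none fell, beside 2.75% and 3.37% of all tested genes. The list median was 0.13. In 6 of the 14 both KO values lay above both WT values and in 2 below, against 25.3% and 26.6% of all tested genes. Tet2, a dioxygenase that oxidises methylcytosine, stood at 653.2 and 969.4 in WT against 3083.0 and 6713.8 in KO (2.51 ± 0.32, adjusted p = 0.00434), a 6.04-fold difference. Dnmt3l, the catalytically inactive cofactor of de novo methylation, stood at 1184.7 and 1811.1 in WT against 6735.0 and 10489.9 in KO (2.52 ± 0.49, adjusted p = 0.0154). Dnmt3a, a de novo methyltransferase, stood at 9125.1 and 5962.0 in WT against 13149.8 and 15429.9 in KO (0.95 ± 0.23, adjusted p = 0.0326). Dnmt3b, the enzyme that normally rises at this stage, stood at 68132.2 and 35339.7 in WT against 33653.8 and 20473.2 in KO, without passing (-0.90, adjusted p = 0.189). Tet2, which acts on methylated DNA, and Dnmt3a and Dnmt3l, which serve de novo methylation, were thus higher in the same libraries.

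Germline genes included 3 that rose of 24 and none that fell, beside 2.75% and 3.37% of all tested genes. In 12 of the 24 both KO values lay above both WT values and in 0 below, against 25.3% and 26.6% of all tested genes, and the median of 0.79 was 0.30 for KO replicate 1 and 1.55 for KO replicate 2. Tex19.1, which restrains retrotransposons in germ cells, stood at 354.0 and 225.2 in WT against 2370.4 and 3223.5 in KO (3.29 ± 0.38, adjusted p = 0.00434). It lies on chromosome 11. Tdrd12, a Tudor protein of the piRNA pathway, rose by 2.64, and the third was Dppa3. Ddx4, the germ cell helicase Vasa, stood at 703.6 and 603.7 in WT against 528.0 and 709.5 in KO without passing.

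Polycomb and BAF genes held 2 that rose and 1 that fell of 30, beside 2.75% and 3.37% of all tested genes. Suz12, a core subunit of Polycomb repressive complex 2, stood at 7178.6 and 8596.6 in WT against 17647.6 and 18707.0 in KO (1.21 ± 0.21, adjusted p = 0.0103). Suz12 lies on chromosome 11, which was raised in KO replicate 1. Mtf2, a Polycomb-like accessory subunit, rose by 0.94, and Phc2 of Polycomb repressive complex 1 fell by 1.09. Tdh, the threonine dehydrogenase on which mouse ES cells rely, rose by 2.43 from 55.9 and 39.7 to 303.7 and 218.2, the single call among 22 genes of serine and one-carbon metabolism.

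Of 25 Nodal and TGF-beta genes, 5 fell and 1 rose, beside 3.37% and 2.75% of all tested genes, with a list median of -0.29 (-0.19 without KO replicate 1). Among the ligands, Tgfb2 stood at 177.5 and 312.0 in WT against 40.9 and 34.5 in KO (-2.62 ± 0.50, adjusted p = 0.0148), and Tgfb3 stood at 39.5 and 70.8 in WT against 14.0 and 8.9 in KO (-2.14 ± 0.52, adjusted p = 0.0355). The ligand Nodal stood at 1046.7 and 679.8 in WT against 1605.2 and 2092.9 in KO without passing (1.12, adjusted p = 0.0539). The groups of the TGF-beta ligands lay well apart, and in Nodal the KO values were the higher.

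Among the transducers, Smad3, which carries TGF-beta and Nodal signals to the nucleus, stood at 1965.1 and 2846.9 in WT against 945.1 and 959.7 in KO (-1.31 ± 0.23, adjusted p = 0.0105). Smad4, the shared partner of receptor Smads, fell by 0.58 (adjusted p = 0.039), and Smad2 had a difference of 0.16 (adjusted p = 0.587). The inhibitor Smad7 rose from 1067.5 and 891.1 to 2217.3 and 2451.5 (1.26 ± 0.28, adjusted p = 0.0265). In each of these genes but Smad2 the groups lay apart. The type I receptors Acvr1b and Tgfbr1 had differences of 0.15 and -0.14, neither past the threshold.

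Notch genes held 3 that fell and 1 that rose of 20, beside 3.37% and 2.75% of all tested genes. The receptors Notch3 (-1.11 ± 0.17, adjusted p = 0.00808) and Notch2 (-0.68, adjusted p = 0.046) and the coactivator Maml3 (-2.10, adjusted p = 0.0471) were lower. Rbpj, the DNA-binding effector of the pathway, rose from 6301.8 and 5804.3 in WT to 10194.1 and 15119.7 in KO (1.04 ± 0.18, adjusted p = 0.011). Notch1 had a difference of 0.03 (adjusted p = 0.96). The called receptors and the effector moved in opposite directions.

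In the Wnt list 2 of 38 rose and 2 fell, near the 2.75% and 3.37% of all tested genes, so what follows describes single genes. Porcn, the acyltransferase that Wnt ligands need for secretion, stood at 196.2 and 271.3 in WT against 1844.7 and 4558.4 in KO (3.65 ± 0.66, adjusted p = 0.0121). It lies on X, where KO replicate 2 was high. Notum, which removes that acyl group, rose from 35.1 and 20.4 to 183.4 and 269.3 (3.01 ± 0.57, adjusted p = 0.0143). Tcf7l1, the repressor Tcf3 that restrains naive genes, fell from 4266.6 and 4132.6 to 2265.2 and 1972.9 (-0.99 ± 0.22, adjusted p = 0.0277), and the coreceptor Lrp5 fell by 0.73.

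In the FGF and ERK list, 1 of 27 rose (Etv5) and 1 fell, the receptor Fgfr1 (-0.93, adjusted p = 0.0395). In the BMP list 1 of 22 rose (Id4, 1.58) and 1 fell (the receptor Acvr1, -0.83). The shares of all tested genes were 2.75% and 3.37%. Among 23 retinoic acid genes, Aldh1a2, which makes retinoic acid, rose from 4.4 and 10.7 to 57.2 and 94.4 (3.23 ± 0.61, adjusted p = 0.0143). Dhrs3, which returns retinaldehyde to retinol, fell from 317.8 and 181.2 to 50.2 and 45.9 (-2.30 ± 0.34, adjusted p = 0.00742). No retinoic acid had been added at this stage, and the receptor Rara had a difference of 0.20 (adjusted p = 0.709).

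**Figure D4:**
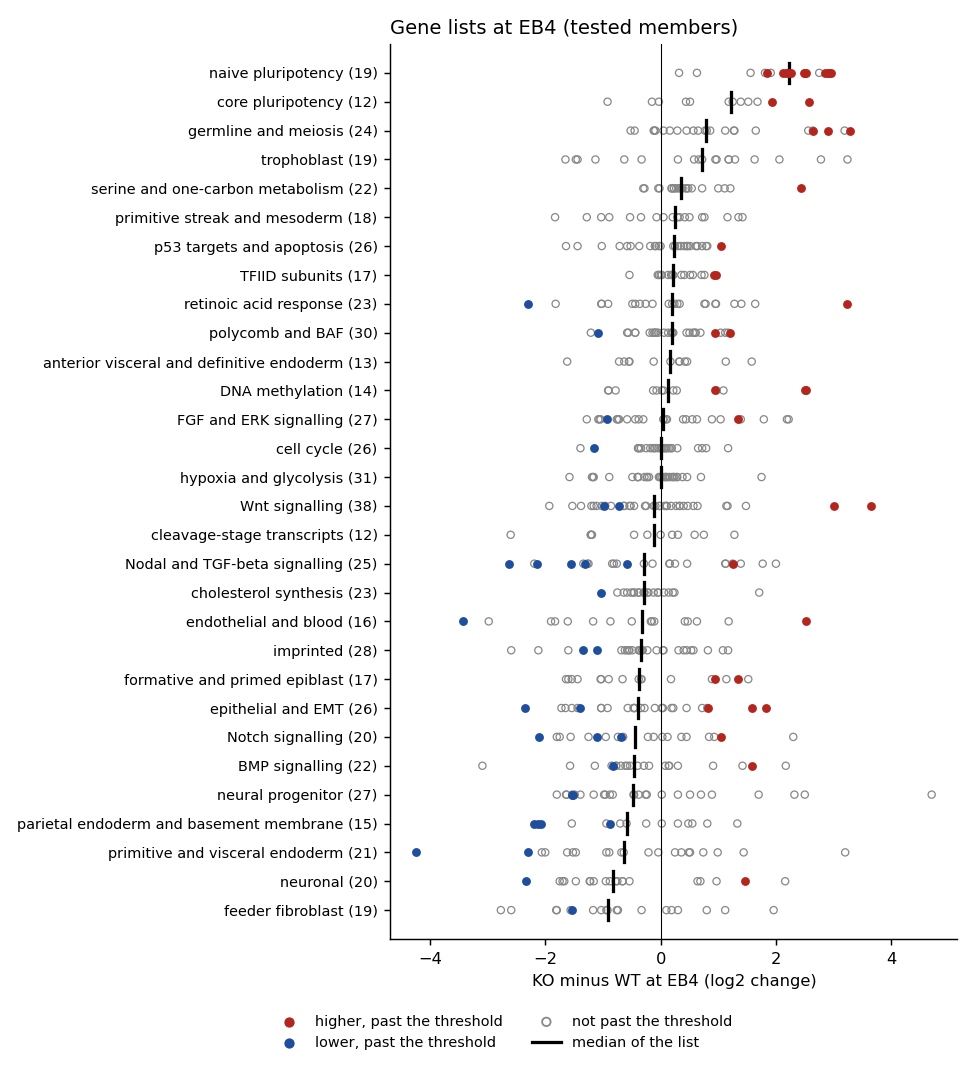
Log2 differences, KO minus WT at EB4, of the tested members of the gene lists other than the Y chromosome genes, with the number tested in brackets. Filled red and blue points passed the threshold, open points did not, and black bars are list medians, which run from 2.22 for naive pluripotency genes to -0.92 for feeder fibroblast genes.

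Visceral endoderm genes fell in 2 of 21 cases and rose in none, beside 3.37% and 2.75% of all tested genes. The list median was -0.64 (-0.94 to -0.37 when 1 library was left out). In 11 genes both KO values lay below both WT values and in 4 above, against 26.6% and 25.3% of all tested genes. Cubn (chr2:13197965-13413551, minus strand), cubilin, an endocytic receptor of visceral endoderm, stood at 153.4 and 587.6 in WT against 17.5 and 12.8 in KO (-4.24 ± 0.81, adjusted p = 0.0147). Dab2, the endocytic adaptor that works with cubilin, stood at 705.8 and 735.6 in WT against 225.5 and 93.2 in KO (-2.30 ± 0.50, adjusted p = 0.0222). The lineage factors did not pass: Gata4 stood at 112.9 and 172.6 in WT against 56.1 and 93.2 in KO, and Gata6 25.2 and 61.1 in WT against 75.9 and 40.8 in KO. The summed counts of the whole list, including untested members, were 17772 and 18708 in WT against 24802 and 21016 in KO, the opposite direction to the median.

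Basement membrane genes fell in 4 of 15 cases and rose in none, beside 3.37% and 2.75% of all tested genes. The median of -0.59 became -0.13 without WT replicate 2. Col4a1 and Col4a2, the type IV collagen chains of basement membranes, fell by 2.07 and 2.19. Col4a1 stood at 3278.1 and 4648.4 in WT against 1088.8 and 797.6 in KO (± 0.33, adjusted p = 0.00897) and Col4a2 at 1376.5 and 2619.6 in WT against 418.2 and 410.9 in KO. Both collagen genes and the plasminogen activator gene Plat lie on chromosome 8, which was high in WT replicate 1. Hspg2, the proteoglycan perlecan on chromosome 4, fell by 0.87, and Plat fell by 2.12 from 142.5 and 83.6 to 23.4 and 25.5. The laminins Lama1 and Lamc1 had differences of -0.94 and -0.25, neither past the threshold.

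Markers of the feeder fibroblasts were lower in sum beside these matrix genes. Their summed counts were 7559 and 10948 in WT against 5417 and 4821 in KO, 1 of 19 passed (Col5a1, -1.54, adjusted p = 0.0147), and the list median was -0.92 (-0.58 without WT replicate 2). In 11 of the 19 both KO values lay below both WT values and in 1 above, against 26.6% and 25.3% of all tested genes. Thy1, a fibroblast surface protein, stood at 503.1 and 204.8 in WT against 109.8 and 107.2 in KO, and the type I collagen gene Col1a2 at 163.3 and 529.7 in WT against 128.5 and 131.4 in KO, neither past the threshold. In Col1a1 and Col3a1 the groups overlapped, and Col3a1 had the opposite sign (log2 difference 1.12, limma adjusted p = 0.503). Lum was at 0 in all 4 libraries, Fap at 0 to 3.8 counts and Postn at 3.3 to 44.0. In bulk RNA fewer cells of a type and less RNA per cell cannot be told apart. The part of feeder cells in the fall of the collagen genes was not tested.

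Primitive streak and mesoderm genes passed in none of 18 cases and varied within both genotypes. T, brachyury, stood at 99.7 and 807.4 in WT against 644.9 and 134.0 in KO, and Mixl1 26.3 and 299.2 in WT against 328.3 and 48.5 in KO. The high library was replicate 2 in WT and replicate 1 in KO, and the list median of 0.25 became -0.50 without KO replicate 1 and -0.54 without WT replicate 1. The 13 anterior visceral and definitive endoderm genes, the 19 trophoblast genes, the 12 cleavage-stage transcripts and the 31 hypoxia and glycolysis genes held no call either.

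Neural progenitor genes fell in 2 of 27 cases and rose in none, beside 3.37% and 2.75% of all tested genes, so the number of calls was near the background. Msi1, the RNA-binding protein Musashi, stood at 2390.3 and 2982.1 in WT against 1334.1 and 650.8 in KO (-1.52 ± 0.29, adjusted p = 0.0147), and Prom1, a membrane protein of progenitors, fell by 1.54 (adjusted p = 0.0307). Nes stood at 9046.2 and 7605.8 in WT against 3917.1 and 2556.1 in KO without passing (-1.39, adjusted p = 0.171). Of 20 neuronal genes 1 fell and 1 rose, and the median was -0.83. In 14 both KO values lay below both WT values and in 3 above, against 26.6% and 25.3% of all tested genes. The intermediate filament gene Nefm fell by 2.34 and the tubulin gene Tubb3 rose by 1.46. For Tubb3 the KO ES values of 4004.6 and 3991.0 were also above the WT ES values of 2180.8 and 2262.7.

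Apart from the epithelial list, the remaining lists held few calls, beside 2.75% of all tested genes that rose and 3.37% that fell. Among 26 cell cycle genes Cdkn1b, the inhibitor p27, fell from 3654.0 and 3783.1 to 1879.7 and 1485.4 (-1.15 ± 0.28, adjusted p = 0.0332), with no cyclin or Cdk past the threshold. Sesn2 rose by 1.04 among 26 p53 and apoptosis genes, Stard4 fell by 1.03 among 23 cholesterol genes, and the imprinted genes Snrpn and Sgce fell by 1.11 and 1.34 among 28. In the epithelial list 3 of 26 genes rose and 2 fell. In 12 of the 26 both KO values lay below both WT values and in 4 above, against 26.6% and 25.3% of all tested genes. The transcription factors Elf3 (1.83), Grhl3 (1.59) and Grhl2 (0.82) rose, while the junction protein Ocln (-1.39) and the repressor Zeb2 (-2.35) fell. Of 16 endothelial and blood genes Pecam1 rose and Cdh5 fell. Cdh5, the endothelial cadherin, had 47.1 and 37.5 counts in WT and was at or under the floor of 3 reads in both KO libraries, at least 11.1-fold lower.

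Beyond the lists, the smallest p among higher genes belonged to Mylpf (chr7:134355122-134357812, plus strand), a regulatory light chain of fast muscle myosin. It stood at 60.3 and 136.2 counts in WT against 1281.6 and 2376.2 in KO (4.25 ± 0.40, adjusted p = 0.00266), an 18.6-fold difference. Mylpf was also abundant in WT ES cells, at 1815.8 and 1859.3. The same held for Rinl (100.8 and 137.3 in WT, 702.1 and 810.4 in KO, 1089.5 and 1165.6 in WT ES) and Gtsf1l (119.5 and 105.1 in WT, 712.6 and 890.7 in KO, 579.8 and 915.3 in WT ES). In these genes the WT EB4 values were below the WT ES values, and the KO EB4 values were nearer to the WT ES values. The KO EB4 values were also below the KO ES values, which were 3678.4 and 3522.8 for Mylpf.

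Mobp, a myelin protein gene, and Pccb, a subunit of mitochondrial propionyl-CoA carboxylase, rose by 2.88 and 1.35. Ncoa3, a coactivator of Esrrb and other nuclear receptors, stood at 3306.5 and 4489.7 in WT against 9522.4 and 13587.1 in KO (1.56 ± 0.20, adjusted p = 0.00434). D14Ertd668e rose by 3.14 and the zinc finger gene Zfp459 by 2.53. Both were already apart in ES cells, where D14Ertd668e stood at 307.6 and 339.6 in WT against 1143.9 and 1255.0 in KO.

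The largest rises among protein-coding genes off chromosomes 8, 11, X and Y were of genes scarce in WT EB4. Serpina3m, a serine protease inhibitor, stood at 1.1 and 7.5 counts in WT against 129.7 and 416.0 in KO (5.79 ± 0.90, adjusted p = 0.00856). Gstp2, a glutathione transferase, stood at 65.8 and 77.2 in WT against 1063.1 and 2320.0 in KO (4.44 ± 0.72, adjusted p = 0.00927). Zp3, a glycoprotein of the egg coat, stood at 6.6 and 2.1 in WT against 71.3 and 142.9 in KO, and H2-M5, a non-classical MHC gene, 38.4 and 57.9 in WT against 462.6 and 1448.4 in KO. Serpina3m, Gstp2 and H2-M5 belong to clusters of related genes, so reads that also match a relative may be lost or misassigned and their values are uncertain.

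The other large rises were of the myosin Myo1f (4.69), the efflux pump Abcc2 (4.50), Smtnl1 (4.42), D630039A03Rik (4.27), the testis cytochrome Cyct (4.19), the protease Tmprss11d (4.03), Gm949 (4.00), Clnk (3.97) and the protease Mep1b (3.96). With edgeR on recovered reads Abcc2 and Clnk did not pass (adjusted p = 0.0723 and 0.0704). 2410137M14Rik was at or under the floor of 3 reads in both WT libraries and at 45.6 and 172.3 in KO, at least 33.1-fold higher. On X, outside that rule, Pnma5 stood at 8.8 and 6.4 counts in WT against 461.5 and 2974.7 in KO (7.11 ± 1.56, adjusted p = 0.0241), and it is named here after its values were seen.

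The smallest p among lower genes belonged to H2afy2 (chr10:61201391-61246895, minus strand), the histone variant macroH2A2, which accompanies silenced chromatin. It stood at 1070.8 and 1276.0 counts in WT against 258.2 and 200.4 in KO (-2.36 ± 0.26, adjusted p = 0.00396), a 5.12-fold lower level. Satb1, a chromatin organiser, stood at 2098.8 and 1910.8 in WT against 501.2 and 282.0 in KO (-2.41 ± 0.30, adjusted p = 0.00434). Both were lower in KO ES cells too, by 1.54 and 1.18, without passing there.

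Sema3c, a secreted guidance semaphorin, stood at 1119.0 and 1664.2 in WT against 115.7 and 111.0 in KO (-3.58 ± 0.46, adjusted p = 0.00434), a 12.3-fold lower level. In WT ES cells it had 175.7 and 121.2 counts, so that the KO EB4 level was close to that of undifferentiated WT cells. In KO ES cells it had 83.8 and 25.0, below the KO EB4 values. Plag1, a zinc finger activator, likewise had 213.0 and 224.0 in WT ES, 1271.3 and 1136.6 in WT EB4 but only 472.0 and 430.1 in KO EB4 (-1.41 ± 0.20, adjusted p = 0.00516). These genes were higher in WT EB4 than in WT ES and reached a lower level in KO EB4.

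Smo, the transducer of Hedgehog signals, stood at 4097.8 and 4890.7 in WT against 1746.5 and 1319.5 in KO (-1.56 ± 0.21, adjusted p = 0.00465). Mef2d, a MADS-box activator, fell by 1.38, the ubiquitin ligase Dtx4 by 1.73 and Phlpp1, a phosphatase of Akt, by 1.26, and App, the amyloid precursor protein, was 3.51-fold lower. Clic5 stood at 187.4 and 304.5 in WT against 18.7 and 24.2 in KO, a fall of 3.43.

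**Figure D5:**
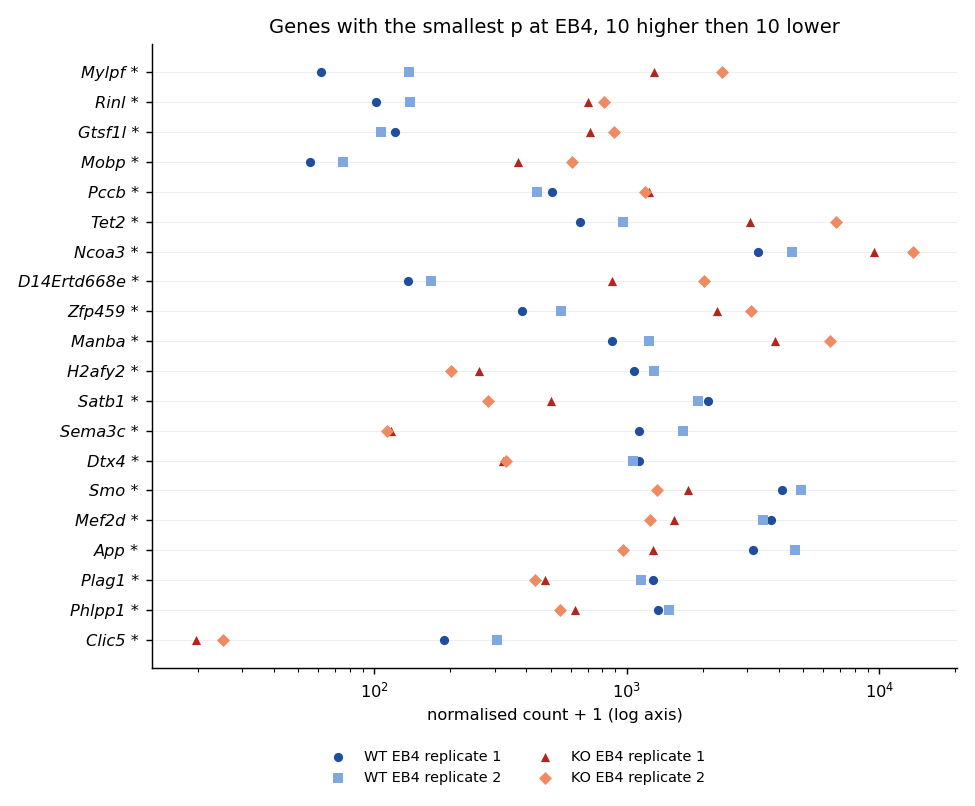
Normalised counts + 1 (log axis) of the 10 higher and 10 lower genes with the smallest p, in the 4 EB4 libraries. The genes were chosen among those whose groups did not overlap, and differences run from Mylpf, 18.6-fold higher in KO, to Clic5, 11.5-fold lower.

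Among the largest falls, Slc22a3, an organic cation transporter, stood at 92.1 and 156.6 in WT against 7.0 and 3.8 in KO (-4.28 ± 1.06, adjusted p = 0.0376). Thsd7a, a thrombospondin-domain membrane protein, stood at 1138.7 and 544.7 in WT against 77.1 and 38.3 in KO, a fall of 3.83. Spon1, the matrix protein F-spondin, stood at 2323.5 and 3759.5 in WT against 460.3 and 135.3 in KO, a fall of 3.56. In WT ES cells Thsd7a had 38.2 and 22.3 counts and Spon1 326.8 and 123.6, near the KO EB4 values. In KO ES cells both were below their KO EB4 values, Thsd7a at 29.1 and 13.6 and Spon1 at 97.1 and 32.2.

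Other large falls were of the serotonin-gated channel subunit Htr3a (-4.08), Synpo2l (-3.94), the sialyltransferase St6gal2 (-3.76), the secretory chaperone Scg5 (-3.74), the receptor phosphatase Ptprm (-3.69), Fgf14 (-3.29), the glutamate transporter Slc1a2 (-3.28) and the ephrin receptor Ephb1 (-3.27). Scel, a precursor of the cornified envelope, was at 0 and 1.3 counts in KO, at or under the floor, and at 15.3 and 101.9 in WT, at least 15.3-fold lower in KO. Each of these genes passed with limma, and with edgeR on recovered reads all but Synpo2l and Fgf14 did, beside 443 of the 543 lower genes.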

How the data were processed

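The members and gene lists were chosen with earlier results of these data known. RNA was poly-A selected and sequenced as single-end reads, with a kit that does not mark strand, so reads of overlapping antisense genes cannot be told apart. Per the submitters' processing notes, CASAVA 1.7 and 1.8, TopHat2 2.0.10, HTSeq 0.5.4p3 and DESeq2 1.0.19 were used on build mm9, and the annotation release is not given in the sources used here. The authors deposited a normalised signal per gene, that is read counts scaled by a per-library size factor. All values were whole multiples of 1 step per library (tolerance 0.001 reads), so whole reads were recovered, 22613253 to 26580885 per EB4 library, and 3 reads or fewer were taken as the floor of detection, which covers counting error only.

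Groups came from the labels. The main test was limma 3.58.1 on log2(normalised count + 1), fitted as 8 group means over all 16 libraries with a spread shared by the groups (residual degrees of freedom 8, prior 4.27). Genes with a mean of at least 10 were tested, Benjamini-Hochberg adjusted p-values were calculated over all 16124 of them, and 0.05 was the threshold. The scale understates changes of low genes. Errors are standard errors of the fit. Named are the 15 largest rises and falls and the 10 smallest p in each direction, among called protein-coding genes off chromosomes 8, 11, X and Y whose groups did not overlap and whose higher group had a mean of at least 50, together with called members of the lists, up to 4 defining or non-passing members per list, Taf4a, Taf4b and Y genes. Alternatives included edgeR 4.0.16 and DESeq2 1.42.0 on recovered reads in R 4.3.3, and the fits were tested on simulated data. Those data were drawn as independent libraries, so they say nothing about repeats of a line. Coordinates and gene types are from GENCODE M1 on mm9, in which 27603 of 27807 identifiers were found. Same-numbered WT and KO EB4 libraries did not deviate together (r = -0.058 over genes). Within a genotype, same-numbered EB4 and EB5 libraries did (r = 0.605 in WT and 0.422 in KO). Between ES and EB4 the values were -0.076 in WT and 0.389 in KO. The main fit treated all 16 libraries as independent, so its p-values do not allow for repeats of a line. Some called list members are not reported here.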

Additional observations from a re-analysis of the deposited data

Results flagged for a closer look

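In 4 named genes both KO libraries lay above both WT libraries at EB4 and below them in ES cells. Clnk, an adaptor of immune receptor signalling, had a KO minus WT log2 difference of 3.97 at EB4 and -0.25 in ES cells, with at most 56.2 counts in any of these libraries. Dnmt3l differed by 2.52 at EB4 and -0.65 in ES cells. Dnmt3a differed by 0.95 at EB4 and -0.53 in ES cells. Grhl3, an epithelial transcription factor, differed by 1.59 at EB4 and -0.34 in ES cells. The limma test of the EB4 difference against the ES difference did not pass for any of them (adjusted p = 0.543 for Clnk and 0.357 for the other 3).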

How the results depend on the processing

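Against the 986 calls at EB4, limma gave 609 with no filter on low values and 101 at a threshold of 0.01. DESeq2 gave 2077. The balance of 443 higher and 543 lower genes turned to 402 and 360 with quantile normalisation, whereas edgeR on all libraries gave 363 and 448. The 4 EB4 libraries alone gave 0 with limma, 0 with edgeR and 1569 with DESeq2, these edgeR and DESeq2 fits being chosen after seeing the data. Leaving out 1 EB4 library gave 0 (without KO replicate 2) to 753 calls, the lone library being assumed to vary like the other groups. edgeR on all libraries gave 811, of which 360 higher and 443 lower genes were shared with limma. A fit with a correlation within line, taking genotype and number as the line, gave 1076 (estimated correlation 0.166). A replicate block gave 1363, but WT and KO EB4 libraries share only a number, since their deviations did not correlate (r = -0.058). Each of the 986 genes kept its direction in every alternative in which it was tested. Their groups did not overlap, so leaving out 1 EB4 library could not turn a direction. The other alternatives compared the same 4 libraries, so the kept directions are no separate support. Of the 112 named genes, the 110 that passed lost the call without KO replicate 2 and with limma or edgeR on the 4 EB4 libraries alone, and 9 lost it with edgeR on all libraries.

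The EB4 difference against the ES difference gave 0 calls with limma, 8 with the replicate block, 112 with DESeq2 and 0 to 1 when 1 EB4 library was left out. The EB4 difference against the EB5 difference gave 0, with 3 at a pseudocount of 5 and 4 with DESeq2. The causes were not tested. Where a group was at or under 3 reads, depth allowed a bound on the fold and no estimate.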
